A study of Mus musculus with 25 samples.

Results

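The genes of the MHC class II pathway and their transactivator *Ciita* were followed across all 7 treatment groups of sh*Rb* mice. The set was named by symbol: *Ciita*, *Cd74*, *H2-Aa*, *H2-Ab1*, *H2-Eb1*, *H2-DMa* and *H2-DMb1*. All 7 were listed among the 15315 genes of the long-term table and among the 14007 genes of the short-term table. In both tables all 7 passed the low-value filter, which asked for at least 10 reads in over 50% of the mice of any group.

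Every mouse carried both transgenes of the sh*Rb* strain, an rtTA driven from *Rosa26* and a GFP-linked shRNA against *Rb* at *Col1a1*. Doxycycline (dox) in the drinking water turns the shRNA on, so RB was depleted broadly and not in the pituitary alone. One shRNA was used, and the strain came from 1 embryonic stem cell clone. The mice started dox as young adults. Long-term pituitaries came from 3 mice after 6 weeks on dox (6w+dox, all female), 4 mice after 12 weeks on dox (12w+dox, replicates 1 and 2 female, replicates 3 and 4 male) and 5 mice given 6 weeks on dox followed by 6 weeks without it (12w-res, replicates 1 and 2 male, replicates 3 to 5 female). Short-term pituitaries came from 3 males after 16 weeks on dox (16w +dox), 4 females 1 day after dox removal (1d -dox), 3 males after 3 days (3d -dox) and 3 females after 5 days (5d -dox). A group that never received dox was not analysed here, so all values are relative to other mice of the same strain.

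Values are FPM, fragments scaled to a common depth: a gene's reads divided by a size factor of the library, as the authors computed them. By the labels, long-term libraries were enriched for poly(A) RNA, and they held 19066053 to 28968476 reads on genes. Short-term libraries, labelled as depleted of ribosomal RNA where the study's methods speak only of mRNA libraries, held 9573101 to 13036900. FPM were therefore compared only within one experiment. *Pomc*, the hormone gene of the cells that form these tumors, took 12.9% to 43.2% of the long-term and 4.96% to 17.9% of the short-term reads on genes, as pituitary tissue would show.

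MHC class II molecules present peptides from endocytosed proteins to CD4+ T cells. *H2-Aa* and *H2-Ab1* encode the alpha and beta chains of I-A, and *H2-Eb1* encodes the beta chain of I-E. *Cd74* encodes the invariant chain, which occupies the groove until the vesicle is reached, and *H2-DMa* and *H2-DMb1* encode the DM dimer that exchanges its remnant for peptide. CIITA binds no DNA itself and switches on the whole set through RFX, CREB and NF-Y bound at a shared promoter module. Dendritic cells, macrophages and B cells hold class II constitutively, and interferon gamma induces *Ciita* in many other cells, with IRF1 among the factors that act there.

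Of the 7 genes, 5 lie in the MHC on mouse chromosome 17, and class II promoters are known for the module described above. In RefSeq coordinates of GRCm38.p6, *H2-DMa* spans chr17:34119693-34139101, *H2-DMb1* chr17:34153191-34160229, *H2-Ab1* chr17:34263227-34269418, *H2-Aa* chr17:34282744-34287823 on the minus strand and *H2-Eb1* chr17:34305867-34316674. *Ciita* spans chr16:10480014-10531064, and *Cd74* lies on another chromosome. The span of *H2-DMa* overlaps *Brd2*, and that of *Ciita* overlaps *Dexi* and a lncRNA, and whether the counting used strand is not given in the sources used here. *H2-DMb1* also has a near-identical neighbour, *H2-DMb2*, so reads could have been split between them.

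The promoters of 3 members are shown because they differ in how many letters of that module they hold. Each runs from 150 bases before the RefSeq start to 10 bases after it, 5′ to 3′ on the gene's strand. Capitals mark GCAAC, letters of the X box where RFX binds, and GATTGG, the inverted CCAAT of the Y box where NF-Y binds. They are *H2-Aa* at chr17:34287814-34287973 (minus strand), *H2-Eb1* at chr17:34305717-34305876 (plus strand) and *H2-DMb1* at chr17:34153041-34153200 (plus strand).
H2-Aa: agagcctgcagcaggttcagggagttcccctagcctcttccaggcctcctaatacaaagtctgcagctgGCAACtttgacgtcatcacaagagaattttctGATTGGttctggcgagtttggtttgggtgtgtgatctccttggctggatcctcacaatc
H2-Eb1: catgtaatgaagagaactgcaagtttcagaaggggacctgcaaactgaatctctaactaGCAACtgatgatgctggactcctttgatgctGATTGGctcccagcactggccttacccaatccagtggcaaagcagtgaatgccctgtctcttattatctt
H2-DMb1: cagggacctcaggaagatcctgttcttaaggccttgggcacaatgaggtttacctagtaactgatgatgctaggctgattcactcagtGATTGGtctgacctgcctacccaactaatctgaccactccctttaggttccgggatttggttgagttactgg

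In *H2-Aa*, GCAAC began 81 and GATTGG 49 bases before the start, and in *H2-Eb1* they began 91 and 60 bases before it, so the starts of the pair lay 32 and 31 bases apart. *H2-DMb1* held GATTGG 62 bases before its start but no GCAAC in 300 bases, although the 13 bases aactgatgatgct stand in both its window and that of *H2-Eb1*. The 2 RefSeq promoters listed for *H2-DMa* held no pair, and GATTGG stood in the second of them 199 bases before the start. Searched on either strand, GCAAC was present in 35.2% and GATTGG in 16.1% of 32851 RefSeq promoters of 300 bases. The pair with its starts 29 to 32 bases apart, a range chosen after these promoters were read, was present in 31 of them (0.0944%), which included *H2-Oa*, *H2-Ob* and *H2-Eb2* beside *H2-Aa* and *H2-Eb1*. A match is a description of letters only.

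Per length, the order of the 7 genes was the same in each of the 12 long-term mice. In FPM per kb of merged GENCODE exons, *Cd74* had a median of 82.8 (46.7 to 143 over mice), *H2-Eb1* 40.4, *H2-Ab1* 26.2, *H2-Aa* 20.7, *H2-DMb1* 3.70, *H2-DMa* 2.13 and *Ciita* 0.273. The place of *H2-Ab1* above *H2-Aa* rested on these lengths (2.57 and 3.80 kb), because *H2-Ab1* had fewer reads. Other places rested on them in part. *H2-DMa* (3.45 kb) had a median of 1.15 times the reads of *H2-DMb1* (1.68 kb), and *H2-Eb1* (1.94 kb) 0.955 times those of *H2-Aa*. Within a mouse each gene stood above the next, while across mice the ranges of most neighbours overlapped, as with *H2-Ab1* (14.7 to 42.0) and *H2-Aa* (11.3 to 31.2). *Ciita*, at 0.0550 to 0.521, was below the range of every other member. In the 13 short-term mice the order was *Cd74*, *H2-Ab1*, *H2-Eb1*, *H2-Aa*, *H2-DMa*, *H2-DMb1* and *Ciita*, with medians of 7.01, 2.83, 2.58, 1.03, 0.265, 0.213 and 0.0662 FPM per kb. There *H2-Ab1* was above *H2-Eb1* in 11 of 13 mice and *H2-DMa* above *H2-DMb1* in 9 of 13, so these neighbours could not be ordered. Proportions between the chains had wider ranges in the short-term mice, whose libraries were of another kind and held fewer reads. *H2-Ab1* had 0.776 to 0.958 of the reads of *H2-Aa* in the long-term mice and 1.75 to 3.20 times its reads in the short-term mice. *H2-Eb1* had 0.843 to 1.12 times the reads of *H2-Aa* in the long-term and 0.720 to 1.60 times in the short-term mice, and *H2-DMa* had 0.814 to 1.57 and 1.04 to 9.0 times those of *H2-DMb1*. The 9.0 rested on 18 reads of *H2-DMa* and 2 of *H2-DMb1* in 5d -dox replicate 3. The 0.720 rested on 18 reads of *H2-Eb1* and 25 of *H2-Aa* in 1d -dox replicate 2. The part of low counts in the wider ranges was not tested.

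The long-term experiment asked how tumors 6 weeks after dox removal differed from tumors that stayed on dox. *Cd74* measured 225, 239.6, 213, 185 and 123 FPM in the 5 12w-res mice and 169, 101, 78.3 and 102 FPM in the 4 12w+dox mice. In 12w-res, 4 mice were above all 12w+dox mice, and the groups overlapped through 12w-res replicate 5 and 12w+dox replicate 1. The I-A chains followed the same mice. *H2-Aa* measured 119, 108, 117, 92.7 and 58.8 FPM in 12w-res and 88.9, 53.9, 43.0 and 54.6 FPM in 12w+dox. *H2-Ab1* measured 108, 103, 105, 72.0 and 47.5 FPM in 12w-res and 76.1, 44.7, 37.6 and 49.9 FPM in 12w+dox. The I-E beta chain *H2-Eb1* measured 115, 113, 98.5, 80.2 and 56.1 FPM in 12w-res and 84.9, 51.5, 37.7 and 49.9 FPM in 12w+dox. In each of the 3 chain genes, replicate 5 of 12w-res was the lowest of its group and fell inside the range of 12w+dox.

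The DM genes, which act later in the vesicle, had lower levels. *H2-DMa* measured 13.3, 11.3, 9.33, 7.26 and 7.46 FPM in 12w-res and 9.07, 5.07, 4.31 and 6.06 FPM in 12w+dox. *H2-DMb1* measured 10.2, 7.34, 9.74, 8.32 and 6.96 FPM in 12w-res and 5.79, 3.38, 5.30 and 4.72 FPM in 12w+dox. *H2-DMb1* was the one member whose groups did not overlap. Across all genes, 17.1% had every 12w-res mouse above every 12w+dox mouse.

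**Figure D1:**
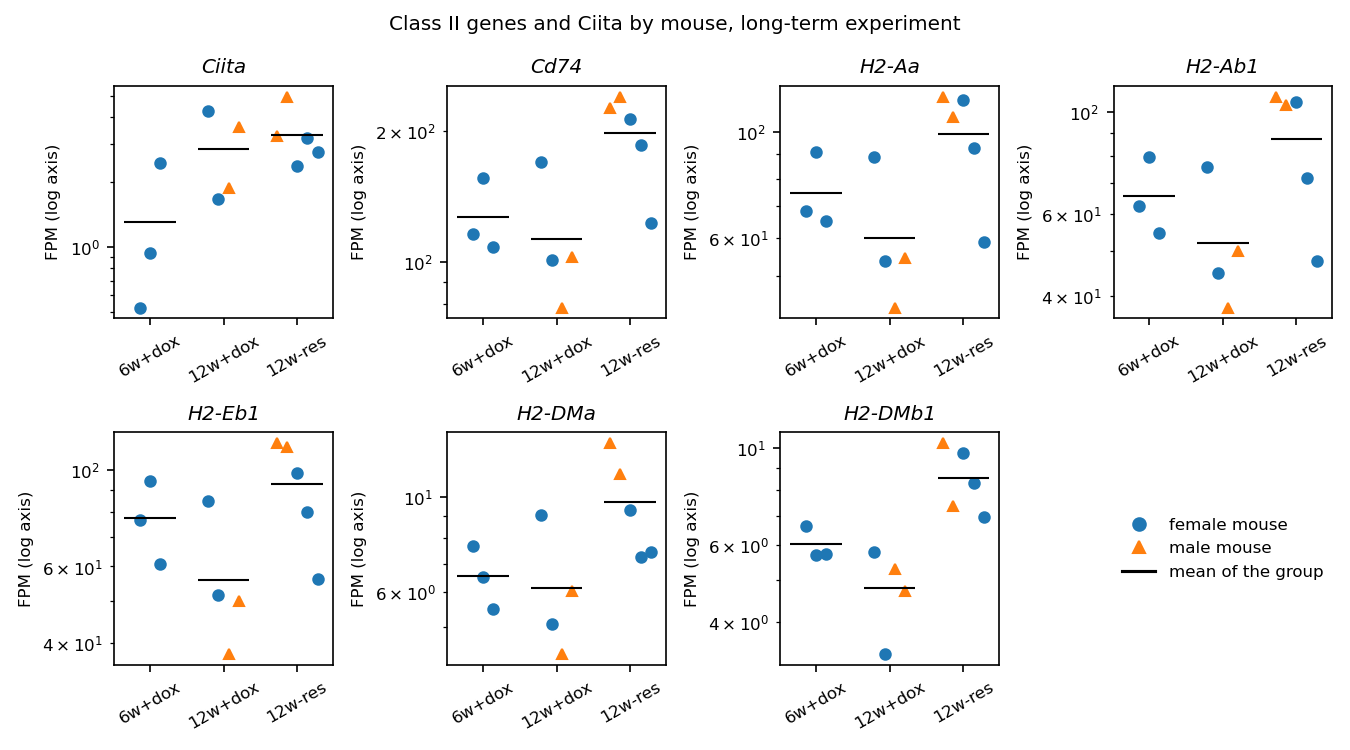
FPM of each gene (log axis) in the 12 long-term mice by group, with females as circles, males as triangles and the group mean as a line. For *Cd74*, 4 of the 5 12w-res mice stand above all 4 12w+dox mice, while *Ciita* overlaps between these groups and is lowest in 2 of the 6w+dox mice.

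A gene was called when its log2 fold change was over 1 in size and its adjusted p was below 0.05 (limma with Benjamini-Hochberg adjustment over all genes). In 12w-res against 12w+dox none of the 7 genes was called, beside 11.3% of all 15315 genes. At an unadjusted p below 0.05 there were 6 of the 7, beside 47.3% of all genes. Without the fold minimum, 6 of the 7 passed the adjusted p and were higher in 12w-res, where 19.4% of all genes were higher at that rule. The log2 fold changes on the log2(FPM + 0.5) scale were 0.82 for *Cd74* (standard error 0.22, adjusted p = 0.00983, limma), 0.78 for *H2-DMb1* (standard error 0.18, adjusted p = 0.00376) and 0.72 for *H2-Aa* (standard error 0.22, adjusted p = 0.0198). *H2-Eb1*, *H2-Ab1* and *H2-DMa* had 0.74, 0.72 and 0.64 (limma adjusted p = 0.0256, 0.0323 and 0.0381). DESeq2 and edgeR on the recovered reads also called 0 of the 7 with the fold minimum and 6 of 7 without it. When 1 mouse was left out, between 2 and 6 of the 7 kept an adjusted p under 0.05. The sexes were also fitted apart. Among males alone (2 against 2), *Cd74*, *H2-Aa*, *H2-Ab1*, *H2-Eb1* and *H2-DMa* were higher by 1.18 to 1.39 and called. The share of all genes called in that fit is not given here. When both sexes shared 1 fit, 2589 of the 15315 genes had a limma adjusted p under 0.05 among males, in either direction and at any fold. Among females alone (3 against 2), the log2 fold changes of the 5 genes called in males were 0.20 to 0.37 and none of the 7 had an adjusted p under 0.05. *H2-DMb1* went the other way, with 0.83 in females and 0.74 in males, and its female difference had a limma adjusted p of 0.0470 when both sexes shared 1 fit. The difference between the sexes itself, tested as an interaction, was 0.90 to 1.18 (males minus females) for the 5 genes called in males and -0.09 for *H2-DMb1*, the first with unadjusted p of 0.0114 to 0.0491, where 2.74% of all genes had an unadjusted p under 0.05. Its adjusted p was 1.00 for all 7 (limma), so the sexes were not shown to differ.

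For *Ciita*, the transactivator, no difference between these groups was detected. It measured 3.28, 4.97, 2.37, 3.19 and 2.76 FPM in 12w-res and 4.26, 1.66, 1.88 and 3.60 FPM in 12w+dox, and the groups overlapped widely. The estimate rested on 50 to 129 reads a mouse and was 0.23 on the log2 scale with a standard error of 0.32 (limma adjusted p = 0.599), and whether this differed from the other 6 genes was not tested. Over the 12 long-term mice, Pearson correlations of log2(FPM + 0.5) between the 6 other genes were 0.69 to 0.99 (15 pairs), and those of *Ciita* with them were 0.17 to 0.42 (6 pairs). After the group means were removed the ranges were 0.38 to 0.98 and 0.064 to 0.36. These points share a library within each mouse, and *Ciita* had the fewest reads of the set.

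In 6w+dox mice *Ciita* was lower still. It measured 0.524, 0.935 and 2.44 FPM there, from 9, 21 and 59 reads. The first 2 mice were below every 12-week mouse, and the third was inside both 12-week ranges. Against 6w+dox, *Ciita* was called higher in 12w-res (1.19 on the log2 scale, standard error 0.35, limma adjusted p = 0.0183). It was the one call among the 7, where 5.81% of all genes were called higher and 11.6% in either direction, and at an unadjusted p below 0.05 there were 3 of the 7 beside 44% of all genes. Without 6w+dox replicate 1 the log2 fold change was 0.86 and without replicate 2 it was 1.10, and neither was called. The call was also lost with a pseudocount of 1 (0.97), with totals of reads (0.88) and in females alone, the one sex in 6w+dox (1.00). In 12w+dox against 6w+dox it was 0.96 with a standard error of 0.37 (limma adjusted p = 0.0753), not called, and with totals of reads it was 1.21 and called.

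The other 6 genes had estimates below 0 between 6w+dox and 12w+dox. In 6w+dox, *Cd74* measured 116, 155 and 108 FPM, *H2-Aa* 68.4, 90.7 and 65.3 FPM and *H2-DMb1* 6.64, 5.70 and 5.71 FPM. The 6w+dox values lay within the 12w+dox range for *Cd74*, and their log2 fold changes in 12w+dox against 6w+dox ran from -0.50 for *H2-Eb1* to -0.13 for *H2-DMa* (limma adjusted p 0.197 to 0.752). None of the 7 was called there, beside 7.2% of all genes, and *Ciita* alone had an unadjusted p below 0.05, beside 36.5% of all genes. In 12w-res against 6w+dox the same 6 genes had log2 fold changes of 0.23 to 0.62 (limma adjusted p 0.0637 to 0.516). Only *H2-DMb1* had groups that did not overlap there, beside 16.9% of all genes higher in that way.

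**Figure D2:**
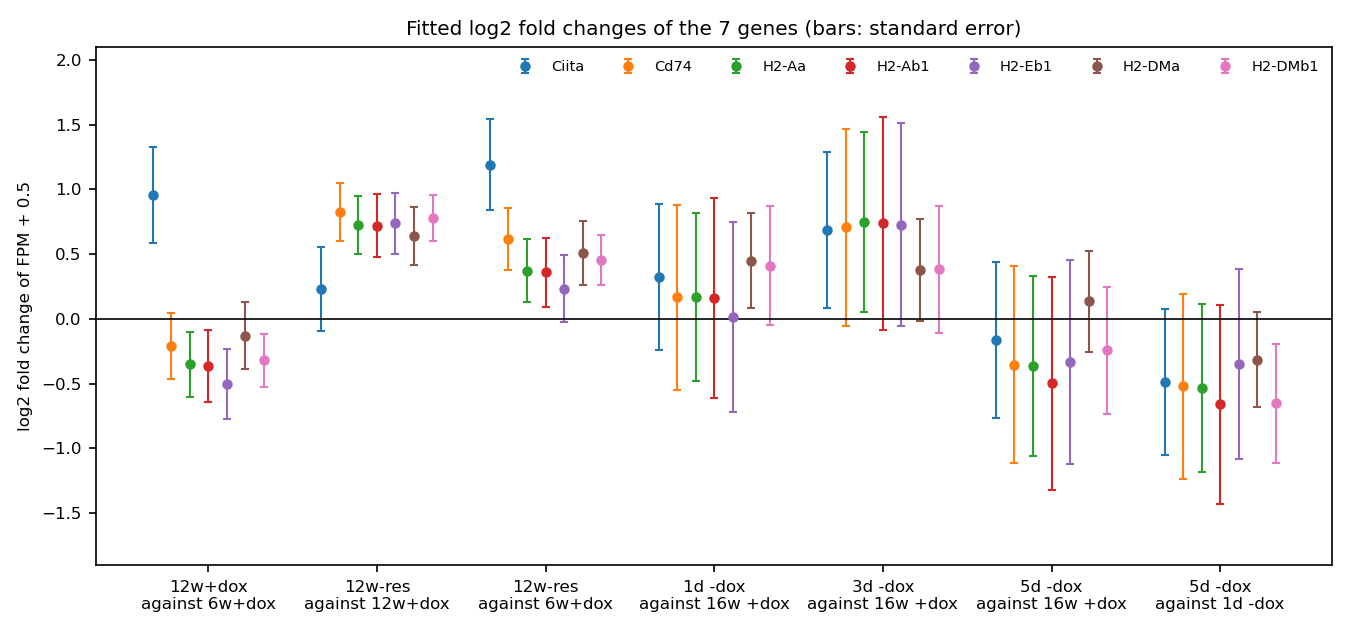
Fitted log2 fold changes of the 7 genes on the log2(FPM + 0.5) scale in 7 comparisons, with bars for 1 standard error. The estimates of *Ciita* lie above those of the other 6 in both comparisons with 6w+dox (0.96 and 1.19), a difference between genes that was not tested. The short-term bars are mostly wider than the long-term ones.

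The scaling of whole libraries touched these folds. *Pomc* alone took 39.1% to 43.2% of reads in 12w-res and 12.9% to 23.0% in 12w+dox. Scaled to total reads, the median gene moved by -0.61 (log2) in 12w-res against 12w+dox, and the 6 class II genes moved by 0.02 to 0.17. Relative to that median they were 0.63 to 0.77 higher, and *Ciita* was 0.28 higher.

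In 12w-res against 12w+dox, leukocyte markers and most macrophage markers were higher together with these genes. No listed dendritic or B cell marker passed the adjusted p there. In bulk tissue, more cells of a type and more RNA per cell cannot be told apart. The summed FPM of 6 leukocyte markers (*Ptprc*, *Itgb2*, *Coro1a*, *Laptm5*, *Cd53* and *Cd52*) was 58.5 to 92.4 in 12w-res, 26.8 to 41.0 in 12w+dox and 28.1 to 35.3 in 6w+dox. All 6 were higher in 12w-res than in 12w+dox at an adjusted p below 0.05 (limma), a rule at which 19.4% of all genes were higher and 18.3% lower, and 2 were called, *Itgb2* (log2 fold change 1.20) and *Laptm5* (1.04). Of 12 macrophage markers, 8 were higher and *Cd163* was lower at the same rule, and their sum was 161 to 246 FPM in 12w-res and 115 to 149 in 12w+dox. Of 4 dendritic cell markers listed, none had an adjusted p under 0.05, and *Flt3*, *Xcr1*, *Cd209a* and *Ccr7* were not listed. Of these 4, 2 had estimates above 0. Their sum was 10.4 to 16.7 FPM in 12w-res, 7.02 to 13.4 in 12w+dox and 4.77 to 6.86 in 6w+dox. In 12w-res against 6w+dox, 1 of the 4 was called higher, beside 5.81% of all genes. Of 3 B cell and 5 T cell markers listed, none had an adjusted p under 0.05 in 12w-res against 12w+dox. The B cell sum was 2.27 to 4.26 FPM in 12w-res and 1.11 to 3.30 FPM in 12w+dox, and *Ms4a1* and *Pax5* were not listed. The sum of the 7 class II genes was 5.16 to 9.18 times that of the leukocyte markers in 12w-res, 7.77 to 10.7 times in 12w+dox and 10.8 to 12.3 times in 6w+dox, so the ratios of the 12w-res mice were all below those of the 6w+dox mice. Set against the macrophage markers the ratios overlapped, at 1.67 to 3.65 in 12w-res, 1.81 to 2.94 in 12w+dox and 2.42 to 2.80 in 6w+dox. Markers of other cells rose too. All 6 endothelial markers passed the adjusted p (limma), with a sum of 120 to 137 FPM in 12w-res beside 33.0 to 68.2 in 12w+dox, and 5 of 5 fibroblast markers were called higher. The part of any of these cells in the class II difference was not tested.

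**Figure D3:**
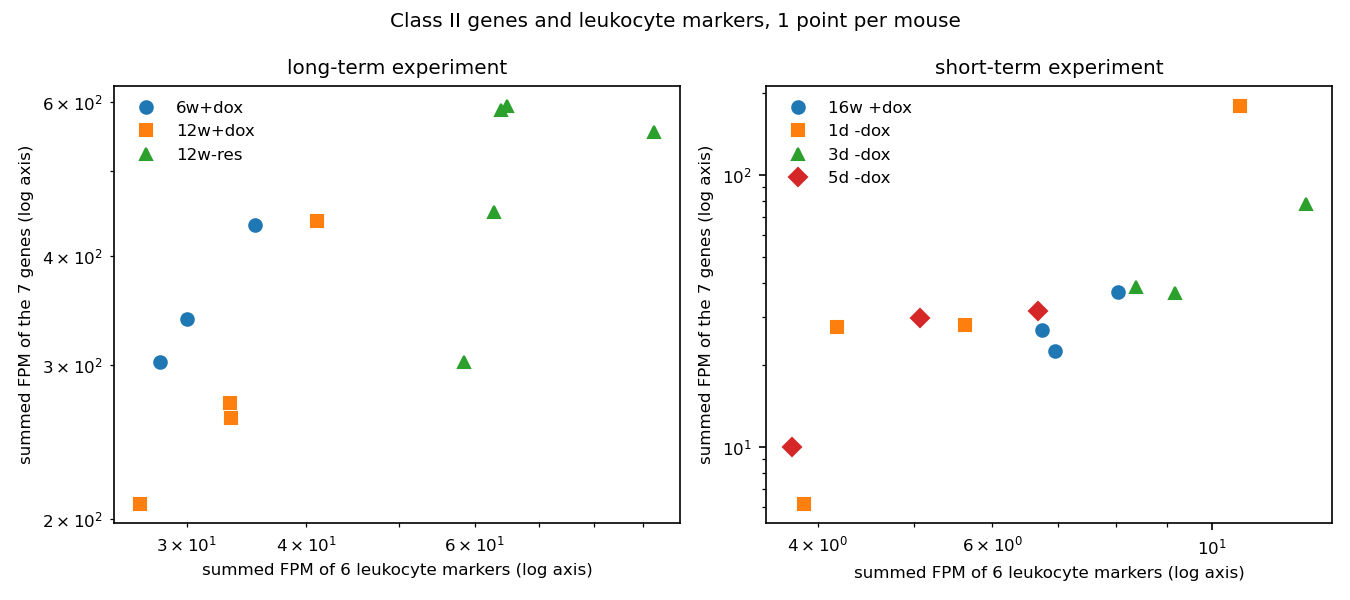
Summed FPM of the 7 genes against summed FPM of 6 leukocyte markers in each mouse (both axes log), long-term left and short-term right. All 5 12w-res mice lie to the right of the other long-term mice, and 1 mouse at 1d -dox has the highest class II sum (179 FPM) without the highest leukocyte sum.

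Regulators upstream of the set moved in both directions. Of 7 factors of the promoter module, none was called in 12w-res against 12w+dox, and *Nfya* and *Nfyb*, subunits of NF-Y, were lower at an adjusted p under 0.05 (log2 fold changes -0.56 and -0.62, limma adjusted p = 0.00646 and 0.00194). Of 7 listed genes from the interferon gamma receptor to *Ciita*, 2 were higher and 2 lower at an adjusted p below 0.05. The receptor chains *Ifngr1* and *Ifngr2* were higher (0.46 and 0.49, limma adjusted p = 0.00885 and 0.0186). Of those lower, *Irf1*, which carries that signal to *Ciita*, had -0.50 (limma adjusted p = 0.00389). *Ifng* itself was not listed. Of the factors of myeloid and B cells, *Spi1*, which encodes PU.1, was called higher (1.19, limma adjusted p = 0.00235) and *Irf8* was called lower (-1.13, limma adjusted p = 9.25e-04). *Irf8* had been called higher in 12w+dox against 6w+dox (1.01, limma adjusted p = 0.0103), and *Irf4* was not listed.

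Genes that process antigen for class II rose in part. Of 8 listed, 4 were higher and 2 lower in 12w-res against 12w+dox at an adjusted p under 0.05. Called higher were the endosomal proteases *Ctss*, which degrades the invariant chain (1.07, limma adjusted p = 0.00199), and *Ctsl* (1.17, limma adjusted p = 4.49e-05). The thiol reductase *Ifi30* fell by 0.70 on the log2 scale (limma adjusted p = 0.00214), and so did *Marchf1*, listed as March1, a ubiquitin ligase that removes class II from the surface (-0.73, limma adjusted p = 0.0196). Genes of the class I pathway also went both ways. Of 9, there were 2 that were higher (*B2m* 0.53 and *H2-K1* 0.33, limma adjusted p = 0.0468 and 0.0365) and 3 that were lower, of which *Psmb9* had the largest change (-0.88, limma adjusted p = 0.00844). In 12w-res against 6w+dox, 8 of these 9 were lower at that rule, beside 16.8% of all genes, and 4 were called lower, while none of the 7 class II genes was called lower. *H2-Eb2*, a class II beta gene beside *H2-Eb1*, also had an estimate of the other sign (-0.66, limma adjusted p = 0.0690), and *H2-DMb2* and *H2-Ob* had 0.50 and 0.38 (limma adjusted p = 0.172 and 0.182).

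The genes most like the set were found by Pearson correlation with the mean standardized log2(FPM + 0.5) of the 7 genes over the 12 long-term mice. The 6 highest were *Tgfb2* (0.95), *C1s1* (0.93), *Mgl2* (0.92), *Cx3cr1* (0.92), *Cxcl16* (0.92) and *Nfam1* (0.91). *Mgl2* is a lectin and *Cx3cr1* a chemokine receptor of myeloid cells. These points share group and library, and of the listed regulators *Spi1* was at 0.91.

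The short-term experiment asked what changed in the first days after dox removal, in tumors of 16 weeks. At these times, the paper reports, *Rb* mRNA had not significantly increased and cell cycle genes had not changed. It describes RB re-expression in such tumors only weeks after dox removal. The short-term values therefore do not measure a response to restored RB. Against 16w +dox, none of the 7 genes was called at any time point by limma, edgeR or DESeq2. By limma the share of all genes called was 0.043% at 1d, 0.129% at 3d and 0.193% at 5d -dox. At an unadjusted p below 0.05 none of the 7 passed either, beside 13.1%, 16.6% and 13.5% of all genes. In these groups the males were the 16w +dox and 3d -dox mice and the females the 1d -dox and 5d -dox mice, so in the 1d and 5d comparisons time off dox and sex cannot be told apart.

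One mouse stood far from all others. *Cd74* measured 72.2 FPM in replicate 1 at 1d -dox, and 2.84, 11.4 and 11.6 FPM in the other 3 mice of its group. *H2-Ab1* measured 54.1 FPM in that mouse and 1.37, 7.28 and 6.60 FPM in the others, *H2-Aa* 16.9 beside 0.763, 3.19 and 3.65 FPM, and *H2-Eb1* 24.2 beside 0.550, 4.54 and 4.0 FPM. *Ciita* was high together with its targets there, at 5.34 FPM from 207 reads, beside 0.122, 0.299 and 0.631 FPM in the other 3. *H2-DMa* (3.35 beside 0.397, 1.17 and 0.910 FPM) and *H2-DMb1* (3.22 beside 0.153, 0.299 and 0.234 FPM) were high too. All 7 genes were higher in this mouse than in any of the other 12, and replicate 2 of the same group was the lowest of the 13 mice in 6 of the 7.

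**Figure D4:**
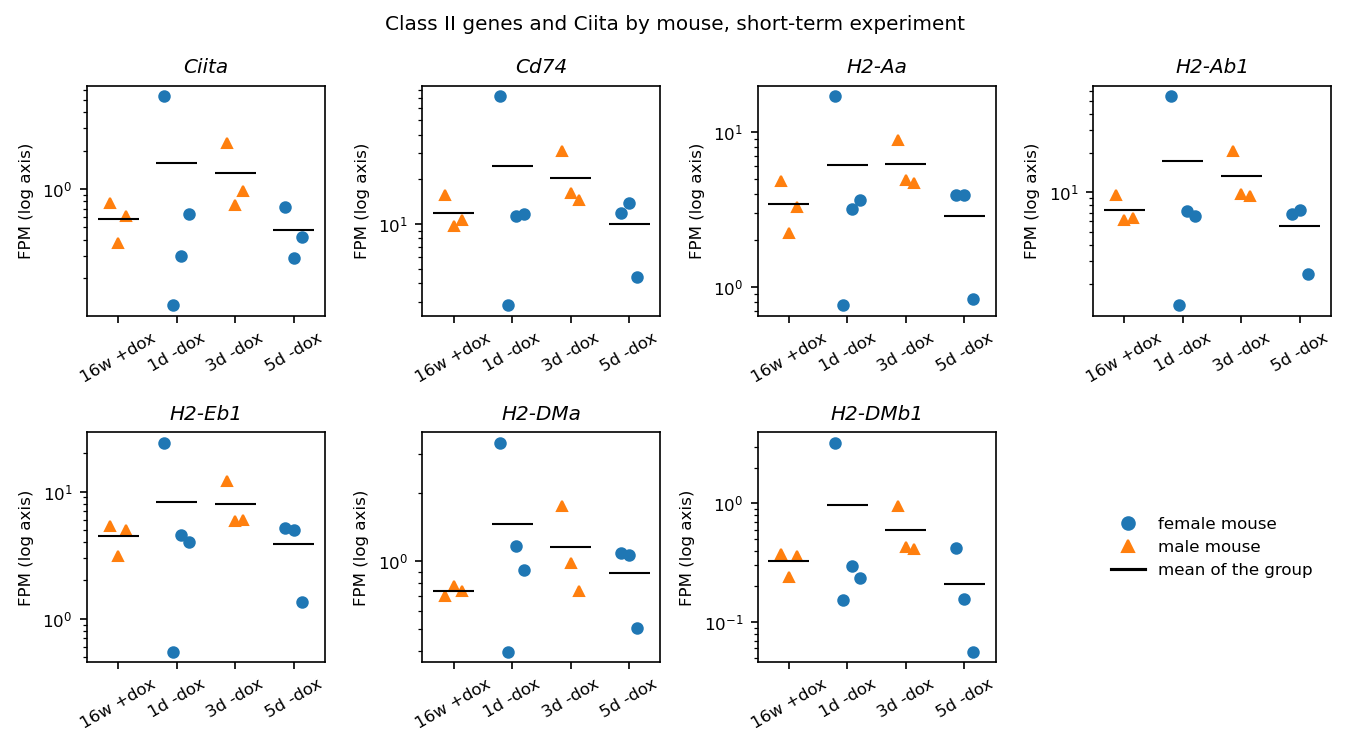
FPM of each gene (log axis) in the 13 short-term mice by group, with females as circles, males as triangles and the group mean as a line. Replicate 1 at 1d -dox is the highest point of each panel (*Cd74* 72.2 FPM) and replicate 2 at 1d -dox is among the lowest (*Cd74* 2.84 FPM).

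On log2(FPM + 0.5), the 7 genes of this mouse were 1.52 to 2.86 above the median of the other 12 mice (median 2.17), while the median of all 13958 genes was -0.0010 and 0.494% of them were more than 1 above. The 12 genes with the largest difference, picked by these values, included *H2-Ab1*, *Cd74* and *Ciita*. Of the others, 8 encode interferon-inducible GTPases (*Gbp4*, *Gbp6*, *Tgtp2*, *Iigp1*, *Tgtp1*, *Gbp2b*, *Irgm2* and *Igtp*), and the last was *Nlrc5*, the class I counterpart of *Ciita*. *Gbp4* measured 14.8 FPM in this mouse and at most 1.96 in any other. *Irf1* was at 19.4 FPM beside 4.46 to 8.24 and *Irf8* at 22.3 beside 4.17 to 7.90. Of 9 class I pathway genes, 7 were more than 1 above, such as *B2m*, the light chain of class I, at 39.7 FPM beside 5.32 to 15.8 and the peptide transporter *Tap1* at 15.8 FPM beside 3.05 to 5.06.

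Cell markers in the same mouse stood differently. None of 6 leukocyte, 12 macrophage or 3 dendritic cell markers was more than 1 above the median of the other mice, and their medians were 0.43, 0.22 and 0.28. None of the 7 promoter factors was either (-0.14 to 0.07). Its leukocyte marker sum was 10.7 FPM, below the highest of the 13 mice (12.4 FPM) and above the other 11. Within its own group that sum was the highest, beside 3.88, 5.63 and 4.19 FPM. So was its macrophage marker sum, at 24.9 FPM beside 16.4, 14.1 and 11.5 FPM. Its class II sum was 16.8 times its leukocyte marker sum, beside 1.60 to 6.60 times in the other 12 mice. *Ptprc* was at 1.88 FPM, inside the 0.428 to 3.19 of the others. What set this mouse apart was not tested.

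**Figure D5:**
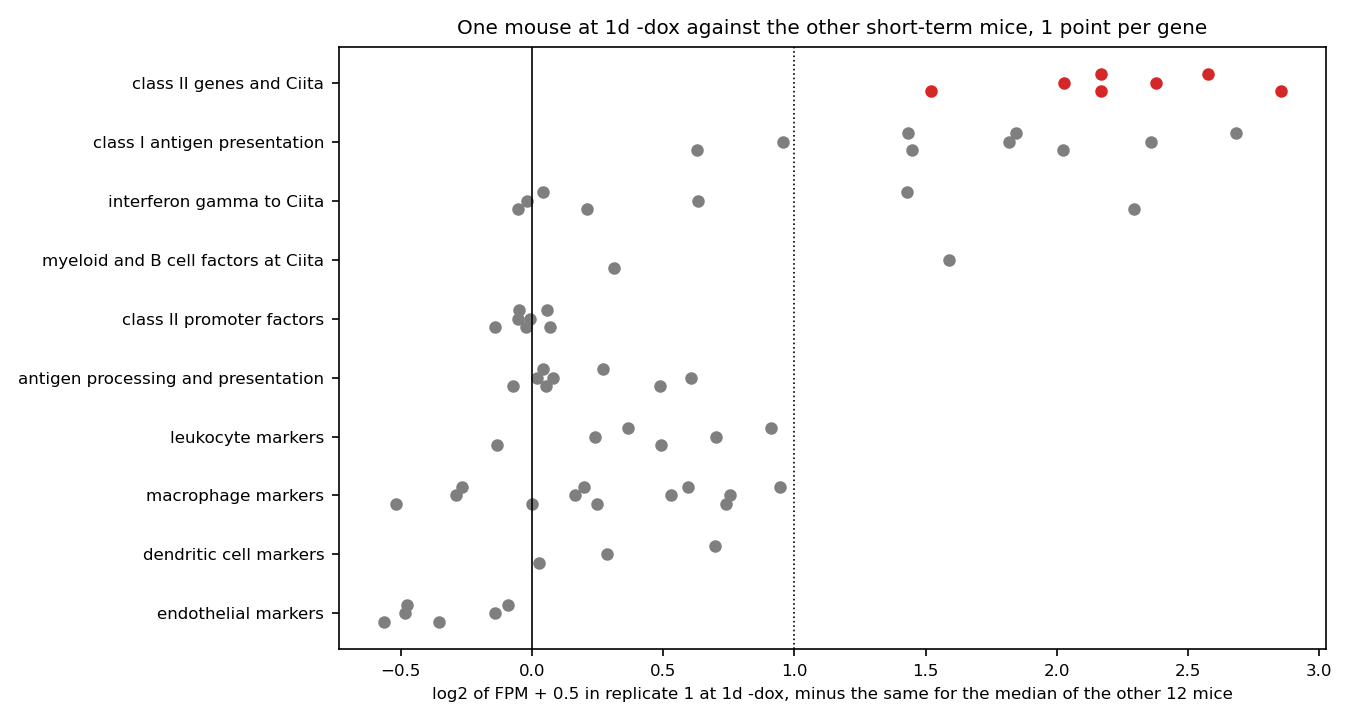
Each point is 1 gene of a list: its log2(FPM + 0.5) in replicate 1 at 1d -dox minus that of the median of the other 12 short-term mice, with a dotted line at 1. All 7 class II points are above 1 (1.52 to 2.86), 7 of 9 class I points are too, and no leukocyte, macrophage or dendritic cell marker is.

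At 1d -dox the log2 fold changes against 16w +dox were 0.02 to 0.45 (limma adjusted p 0.634 to 0.996). They rested on replicate 1: without it they were -0.76 to 0.05, and 6 of the 7 were below 0. Without replicate 2, the lowest mouse, they were 0.66 to 0.90, and edgeR on the recovered reads gave 0.83 to 1.58 with all mice. The 16w +dox mice themselves measured 15.6, 9.68 and 10.6 FPM for *Cd74* and 0.774, 0.374 and 0.613 FPM for *Ciita*, so the 1d -dox mice other than replicates 1 and 2 were close to or inside that range.

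At 3d -dox, where both groups were male, all 7 estimates were above 0. *Cd74* measured 31.0, 16.1 and 14.6 FPM, *H2-Ab1* 20.8, 9.71 and 9.45 FPM and *Ciita* 2.30, 0.755 and 0.968 FPM. Replicate 1 was the highest in each, and the other 2 mice were near the upper end of 16w +dox. The log2 fold changes were 0.38 to 0.75 with standard errors of 0.39 to 0.82 (limma adjusted p 0.602 to 0.736). *H2-Eb1* (12.2, 5.83 and 5.99 FPM beside 5.37, 3.10 and 4.95) and *H2-DMb1* (0.956, 0.428 and 0.412 FPM beside 0.374, 0.241 and 0.357) had groups that did not overlap, beside 10.6% of all genes higher in that way. Without 3d -dox replicate 1 the 7 log2 fold changes were 0.13 to 0.47. That mouse also had the highest sum of leukocyte markers (12.4 FPM beside 3.77 to 10.7 in the others), and 6 of 7 markers of other pituitary cells were more than 1 above the median of the rest, with *Lhb*, a gonadotroph hormone gene, at 21.0 FPM beside 7.77 and 24.5 FPM in the other 3d -dox mice and a median of 0.341 FPM over the other 12. The part of tissue composition in its class II level was not tested.

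At 5d -dox, *Cd74* measured 11.8, 13.9 and 4.42 FPM, *H2-Ab1* 6.81, 7.40 and 2.36 FPM and *Ciita* 0.729, 0.286 and 0.422 FPM. For *Cd74* the first 2 mice were within the 16w +dox range, and replicate 3 was below it. The log2 fold changes against 16w +dox were -0.50 to 0.13 (limma adjusted p 0.846 to 0.941). Without 5d -dox replicate 3 they were -0.13 to 0.35. Against 1d -dox, a comparison within females, they were -0.66 to -0.31 (limma adjusted p 0.826 to 0.948). None of the 7 was called there or had an unadjusted p below 0.05, beside 0.0143% and 6.33% of all genes. Without 1d -dox replicate 1 they were -0.06 to 0.43, without replicate 2 -1.40 to -0.62, and by edgeR -2.21 to -0.72. The 16w +dox mice serve as the control of all 3 time points.

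Levels of *Ciita* and the other 6 genes were also correlated over the short-term mice. Pearson correlations of log2(FPM + 0.5) over the 13 mice were 0.84 to 1.00 between the other 6 genes (15 pairs) and 0.85 to 0.95 with *Ciita* (6 pairs). Without replicate 1 at 1d -dox they were 0.73 to 1.00 and 0.63 to 0.88, and with the group means also removed 0.70 to 1.00 and 0.59 to 0.79. At 5d -dox, replicate 2 had the highest *Cd74* and the lowest *Ciita* of its group. The genes most like the set were *Gbp9* (0.97), *Gbp2* (0.94), *Psmb8* (0.92), *Irgm1* (0.92), *Unc93b1* (0.91) and *Coro1a* (0.91). Without that mouse *Gbp9* still led (0.92), followed by *Pcnx*, *Mbd5*, *Mpp5*, *Apbb1ip* and *Asb2* (0.91 to 0.90). These correlations describe libraries that share 1 preparation and have no test.

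Of the other genes of the pathway in the short-term mice, none of 8 for antigen processing was called at any time point, and *Ctsl* alone passed the adjusted p, being lower at 3d -dox (limma adjusted p = 0.0396). None of 7 promoter factors, 7 interferon gamma to *Ciita* genes or 9 class I genes had an adjusted p under 0.05 in any short-term comparison (limma). The median log2 fold change of the 7 class II genes was 0.17, 0.71 and -0.33 at 1d, 3d and 5d -dox, and that of the 6 leukocyte markers was -0.30, 0.22 and -0.35. The median of all genes was within 0.01 of 0 at each.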

How the data were processed

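RNA-seq values of 12 long-term and 13 short-term pituitaries were used. Groups, replicate numbers and sexes came from the labels. Reads were mapped by the authors with STAR (mm10) and counted on RefSeq genes, and a signal per gene and mouse was deposited, FPM scaled by DESeq2 size factors. The counting tool is not given in the sources used here. Dividing by the smallest step gave whole reads for 100% of values (within 0.1 of a read). Of the short-term lines, 4 name no gene (68.8% to 75.0% of a library) and were left out of depths and tests, and 0 per-sample columns were unused.

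Differences were tested with limma 3.58.1 under R 4.3.3, taking log2(FPM + 0.5), a trended prior and all groups of one experiment in one fit, with Benjamini-Hochberg adjustment over 15315 long-term and 13958 short-term genes. The pseudocount of 0.5 shrinks differences of genes with few reads. edgeR 4.0.16 and DESeq2 1.42.0 on the recovered reads, other scalings, filters, pseudocounts, sexes and each mouse left out were alternatives. The males-only fit, the interaction with sex and the likeness without 1 mouse were chosen after seeing the data. The code was tested on simulated data.

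Each library is 1 labelled replicate, and p-values measure the spread between these samples. The 7 genes and all lists were chosen with earlier results of these data known. Named were the 7 genes, up to 4 genes per list and comparison by call or adjusted p, and the 6 genes most like the set. Other genes named, among them *Nlrc5*, *Lhb*, *Ptprc*, *Itgb2*, the GTPases and further list genes, were chosen after their values were seen. Older symbols and the promoters came from RefSeq, and exon lengths came from GENCODE, with all exons of a gene merged. Sequences of the other members and the values of some listed genes are not shown here.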

Additional observations from a re-analysis of the deposited data

Results flagged for a closer look

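Within groups of 4 or 5 mice, each member was tested for a sample far from the rest, 21 combinations of gene and group in all. The test used FPM and not the log2 scale of the fits, and whether the same samples would be marked on that scale was not tested. Such a test marks about 1 in 20 groups by chance only where values are normally distributed, and the combinations share mice. In 5 of them 1 mouse stood apart by its gap to the next mouse over the range of the group, and it was replicate 1 at 1d -dox in each, the highest of its group. It measured 5.34 FPM for *Ciita*, 72.2 for *Cd74*, 54.1 for *H2-Ab1*, 24.2 for *H2-Eb1* and 3.22 for *H2-DMb1*. For *H2-Aa* (16.9 FPM) and *H2-DMa* (3.35 FPM) it was the highest too, with a gap that did not reach the limit. No long-term mouse stood apart in this way.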

How the results depend on the processing

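Settings were changed one at a time, except that edgeR and DESeq2 change the test, the scaling and the input together. In 12w-res against 12w+dox the count of called genes was 0, and it was 6 with no minimum fold change and 5 in males alone. In 12w-res against 6w+dox the count was 1 (*Ciita*), and 0 with a pseudocount of 1, totals of reads, females alone or the replicate block. A filter of 10 reads in every sample also gave 0, because it removed *Ciita* (9 reads in 6w+dox replicate 1). In 12w+dox against 6w+dox the count was 0, and 1 (*Ciita*, log2 fold change 1.21) with totals of reads. Leaving out 1 mouse gave counts of 0 to 1 in each long-term comparison: 1 without 12w+dox replicate 1 in the first (*Cd74*, 1.04), 0 without 6w+dox replicate 1 or 2 in the second, and 1 without 6w+dox replicate 3 in the third (*Ciita*, 1.38). All short-term counts stayed at 0. Signs turned with totals of reads for *Ciita* in 12w-res against 12w+dox (-0.33), *H2-Eb1* in 12w-res against 6w+dox (-0.095), and *Cd74* and *H2-DMa* in 12w+dox against 6w+dox (0.12 and 0.17), and with females alone for the last pair (0.063 and 0.059). *H2-Eb1* at 1d -dox turned with a pseudocount of 0.1 (-0.098). The cause was not tested.

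Leaving out 1 mouse turned a sign in 20 fits, 1 of them long-term (*H2-DMa* in 12w+dox against 6w+dox, -0.32 to 0.0078). At 1d -dox the ranges were -0.38 to 0.70 for *Ciita*, -0.64 to 0.84 for *Cd74*, -0.50 to 0.76 for *H2-Aa*, -0.72 to 0.90 for *H2-Ab1*, -0.76 to 0.76 for *H2-Eb1* and -0.18 to 0.66 for *H2-DMb1*. At 5d -dox against 16w +dox they were -0.65 to 0.12 for *Cd74*, -0.65 to 0.21 for *H2-Aa* and -0.61 to 0.20 for *H2-Eb1*. At 5d -dox against 1d -dox they were -0.86 to 0.22 for *Ciita*, -1.20 to 0.28 for *Cd74*, -1.12 to 0.14 for *H2-Aa*, -1.40 to 0.23 for *H2-Ab1*, -1.09 to 0.43 for *H2-Eb1* and -0.62 to 0.082 for *H2-DMa*.

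Same-numbered mice did not clearly deviate together (correlations of -0.21 to 0.24), which in groups this small does not exclude a pairing. With the replicate block, the called count fell to 0 in 12w-res against 6w+dox (*Ciita* 1.19, adjusted p = 0.0816, limma) and was 0 in the other 6 comparisons. Sex as a covariate changed no call in the long-term fits, and in the short-term fits it could not be estimated because each group held 1 sex. Depth limits *Ciita* (4 to 207 reads per mouse) and *H2-DMb1* (down to 2 reads) most in the short-term mice.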
